A study of Mus musculus with 24 samples.

Results

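Transcripts of 10 chemokine genes, Ccl2, Ccl6, Ccl7, Ccl8, Ccl9, Ccl11, Cxcl1, Cxcl12, Cxcl13 and Cxcl14, were followed in inguinal white adipose tissue, the fat depot under the skin of the groin. The genes were taken as a named list, chosen with earlier results of these data known, and found by symbol. All 10 were in the table of 17541 genes, and all 10 were among the 15939 genes that passed the filter on low counts. The mice were wild-type C57BL/6J animals on a high-fat diet, in 4 groups. Aged BAM15 held 5 mice of 92 weeks given BAM15, a small molecule that uncouples mitochondria. Aged CTRL held 6 mice of 92 weeks of the control treatment, Young BAM15 held 6 mice of 16 weeks given BAM15, and Young CTRL held 7 mice of 16 weeks of the control treatment. The dose and route of BAM15 are not in the labels. RNA was sequenced from the 3′ ends of transcripts, 1 library per mouse, and expression levels are stated in CPM (counts per M counts, after scaling of the libraries).

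Chemokines are small secreted proteins that attract cells bearing their receptors. Their names give the spacing of the first cysteines of the mature protein: adjacent in the CC ligands, 1 residue apart in the CXC ligands. In fat tissue of obese animals, CC ligands are known for drawing in monocytes that become macrophages, and CXC ligands for neutrophils, B cells and the retention of progenitors. A few ligands pair with 1 receptor, but most share receptors with other ligands, and atypical receptors bind ligands without the usual signalling.

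The coding stretch around the paired cysteines is shown for all 10 genes because it is what places each in its family. The sequences come from the GENCODE M21 transcripts of the mouse genome build GRCm38, with the 2 cysteine codons in capitals.
Ccl2: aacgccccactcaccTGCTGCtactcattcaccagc
Ccl7: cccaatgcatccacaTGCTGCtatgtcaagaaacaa
Ccl8: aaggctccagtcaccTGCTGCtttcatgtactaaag
Ccl11: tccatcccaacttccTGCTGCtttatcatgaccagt
Ccl6: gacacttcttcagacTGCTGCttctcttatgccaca
Ccl9: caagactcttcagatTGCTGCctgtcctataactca
Cxcl1: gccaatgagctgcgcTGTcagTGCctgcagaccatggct
Cxcl12: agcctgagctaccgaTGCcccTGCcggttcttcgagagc
Cxcl13: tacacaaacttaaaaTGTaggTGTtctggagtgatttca
Cxcl14: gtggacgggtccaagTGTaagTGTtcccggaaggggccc
Each of the 6 CC genes had TGCTGC, 2 adjacent cysteine codons, and each of the 4 CXC genes had 1 codon between them. The codon between the cysteines differed among all 4 CXC genes.

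The 6 CC genes lie on chromosome 11. Ccl2 (82035571 to 82037453), Ccl7 (82045712 to 82047525), Ccl11 (82057823 to 82062955) and Ccl8 (82115185 to 82116799) follow each other on the plus strand. Ccl9 (83572919 to 83578636) and Ccl6 (83587882 to 83593087) lie farther along on the minus strand. Cxcl1 (90891241 to 90893115) and Cxcl13 (95956951 to 95961068) lie on the plus strand of chromosome 5, Cxcl12 (117168535 to 117181367) on the plus strand of chromosome 6, and Cxcl14 (56288643 to 56296551) on the minus strand of chromosome 13. Ccl2 overlaps the antisense gene Gm17268 and Ccl6 overlaps the antisense gene E230016K23Rik, and the strand used in counting is not given in the sources used here, so reads of either pair cannot be told apart. A transcript of Ccl9 shares a stretch of 50 bases with 250 other genes, and those of the other 9 chemokines with 0, so Ccl9 counts from that stretch are uncertain.

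Library totals ran from 8.62 to 21.9 M counts. The summed level of 8 adipocyte markers was 16130 to 79488 CPM over the 24 libraries, so markers of the labelled tissue were present in each. Marks that the groups do not name ran through the libraries. In Aged BAM15 2, Aged BAM15 5, Aged CTRL 2 and Young CTRL 4 the mitochondrial ribosomal transcript mt-Rnr2 held 0.121 to 0.257% of counts, against 0.722 to 2.26% in the other 20. All mitochondrial transcripts together held 12 to 21.4% of counts in those 4 and 4.82 to 9.27% in the other 20. B cell transcripts, taken as the mean log2 CPM of 4 B cell genes, were 3.12 or more in 3 of 5 Aged BAM15, 1 of 6 Aged CTRL, 5 of 6 Young BAM15 and 2 of 7 Young CTRL libraries, and 1.80 or less in the rest. The epithelial keratin Krt14 was high in Young CTRL 1 (840 CPM) and Young CTRL 7 (90.0 CPM), with at most 3.28 CPM elsewhere. The summed level of 7 skeletal muscle markers was 18278 CPM in Aged CTRL 1, 50061 CPM in Young BAM15 3 and 46311 CPM in Young CTRL 7, with 16.6 to 7741 CPM in the other 21. Values without these marks are given beside several of the chemokines and lists that move with mt-Rnr2 or B cell transcripts, and the part of muscle was not tested. In bulk tissue a smaller number of expressing cells and less RNA per cell cannot be told apart.

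The series asks how age and BAM15 alter this depot. A gene is called where its Benjamini-Hochberg adjusted p over all 15939 genes is under 0.05 with the quasi-likelihood test of edgeR, and changes are given on the log2 scale with a standard error (SE). Of the 10 chemokines, Ccl11 was called in 1 of 5 comparisons and the other 9 in none. Ccl11 rose in Aged BAM15 against Young BAM15, a comparison added after the data were seen. Of the genes tested, 0.427% were called in it (68 of 15939). The count over all genes there ran from 14 without Aged BAM15 5 to 121 without Aged BAM15 1, and was 30 without Aged BAM15 2 and 24, 38, 26, 16 and 25 without Young BAM15 2, 3, 4, 5 and 6. In Aged CTRL against Young CTRL edgeR called 0 of the 10 chemokines and 0.207% of all genes (33, and 21 or 20 without Aged CTRL 1 or 6). In that comparison the log2 change was above 0 for 10 of 10 chemokines, against 46.5% of all genes. The median was 0.75 for the 10 and -0.04 over all genes (without Aged CTRL 2, Cxcl14 lay at -0.07). There, 3 of 10 had an unadjusted p under 0.05, against 8.43% of all genes. The 10 were chosen with earlier results of these data known. Their shares and medians in this and the other comparisons therefore describe them and are not a test. Of 17 other chemokine ligands tested, 8 had a log2 change above 0 in Aged CTRL minus Young CTRL, with a median of -0.04. EdgeR called 0 of those 17, and 4 had an unadjusted p under 0.05, all higher. DESeq2 called 2 of the 10 there, Ccl9 and Ccl11, and limma-voom called Ccl11. Both tools also called more of all genes there than edgeR, with the totals given in the closing section.

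BAM15 was set against CTRL within each age. In aged mice edgeR called 0 of the 10 chemokines and 0% of all genes, and 3 of 10 had an unadjusted p under 0.05 (Ccl2, Ccl6 and Ccl9, all with a negative log2 change) against 9.10% of all genes. DESeq2 called 140 genes and 0 of the 10, and limma-voom called 966 genes, Ccl6 and Ccl9 among them. In young mice edgeR called 0 of the 10 and 0% of all genes, and 4 of 10 had an unadjusted p under 0.05 (Ccl2, Ccl7 and Ccl9 with a negative and Cxcl13 with a positive log2 change) against 13.1% of all genes. DESeq2 called 218 genes and limma-voom 631, and both called Ccl2 and Ccl7. The median log2 change of the 10 was -0.40 in aged and -0.58 in young mice, against 0.02 and 0.03 over all genes. Over the 17 other chemokine ligands tested it was 0.10 in aged and 0.49 in young mice, with 9 and 12 of 17 above 0. For the difference between both BAM15 effects, edgeR called 0 of the 10 and 0% of all genes, Ccl7 alone had an unadjusted p under 0.05 against 5.08% of all genes, while DESeq2 called 38 genes and limma-voom 0, with none of the 10 among them. The age and BAM15 comparisons share the CTRL libraries, so their values are not independent of each other. The number of genes called in aged mice with BAM15 was 67 without Aged BAM15 1, 17 without Aged CTRL 2 and 1 without Aged CTRL 5, with none of the 10 chemokines among them, and it was 1 in young mice without Young BAM15 3.

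**Figure D1:**
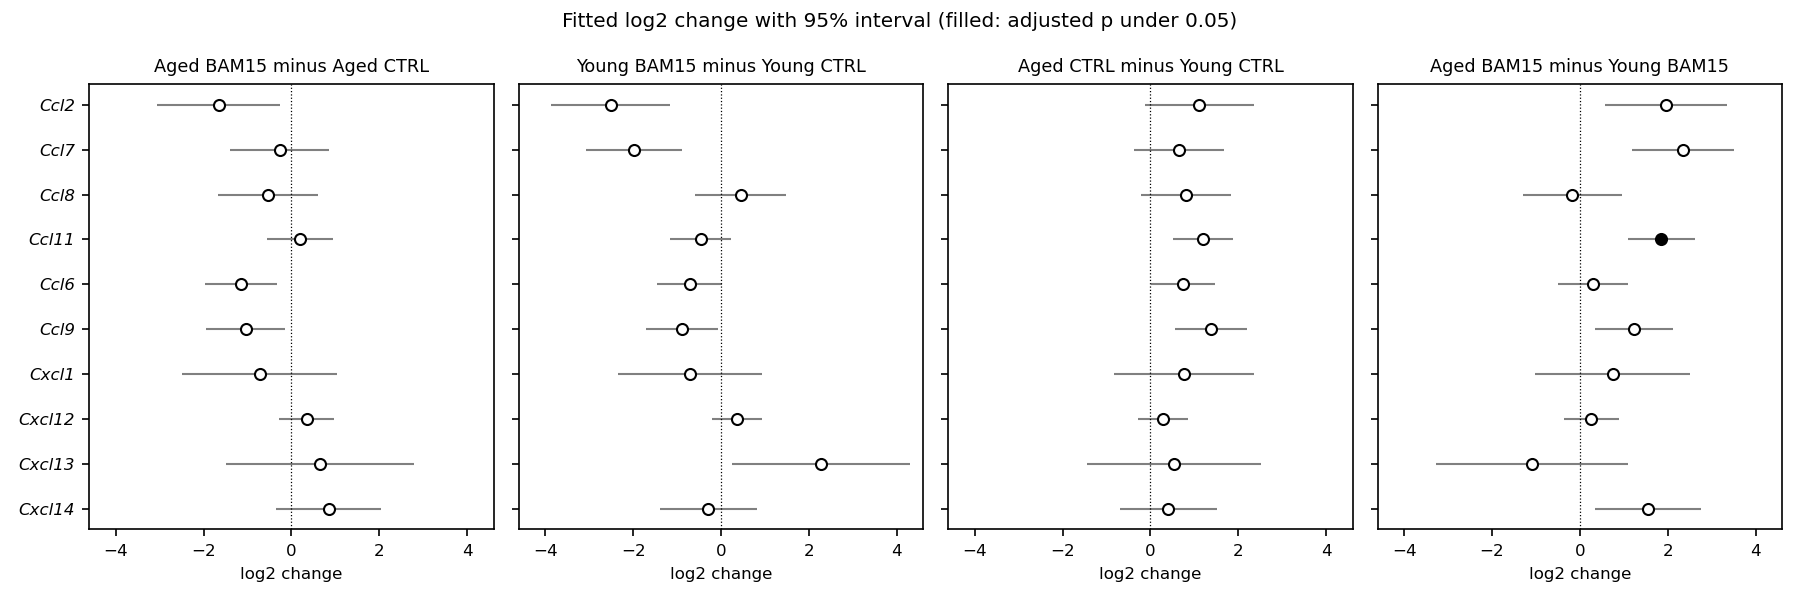
Fitted log2 change (x axis) of each chemokine in 4 comparisons, with the 95% interval as a line; filled points have an adjusted p under 0.05 with edgeR. The filled point is Ccl11 in Aged BAM15 minus Young BAM15, at 1.85, a comparison added after the data were seen. In the comparison of Aged CTRL with Young CTRL all 10 points lie right of 0 without a call.

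Ccl11 encodes eotaxin, which attracts eosinophils through the receptor CCR3. It lay at 34.6, 84.1, 47.2, 30.0 and 57.1 CPM in the 5 Aged BAM15 mice, and from 29.0 to 61.7 CPM with a median of 41.7 CPM in Aged CTRL. Young BAM15 ran from 5.76 to 23.3 CPM with a median of 13.6 CPM, and Young CTRL from 6.36 to 33.4 CPM with a median of 19.9 CPM. Every Aged BAM15 library lay above every Young BAM15 library, a separation seen in 2.06% of all genes in that comparison. Among CTRL mice the ranges overlapped through Young CTRL 6 at 33.4 CPM, above Aged CTRL 5 at 29.0 CPM.

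Ccl11 averaged 50.6 ± 21.5 CPM in Aged BAM15 (SD, n = 5) and 14.0 ± 6.11 CPM in Young BAM15 (SD, n = 6), a log2 change of 1.85 ± 0.36 (SE; edgeR, adjusted p = 0.0214). That call was lost when any of 5 libraries was left out: Aged BAM15 2 (log2 change 1.62, adjusted p = 0.0695), Aged BAM15 5 (1.80, 0.0779), Young BAM15 2 (1.79, 0.0619), Young BAM15 4 (1.69, 0.0529) or Young BAM15 5 (1.79, 0.0742). It was also lost without the 4 libraries low in mt-Rnr2 (1.43, adjusted p = 0.0802) and in a fit to these 2 groups alone (1.89, adjusted p = 0.0773). In CTRL mice the log2 change with age was 1.20 ± 0.33 (SE) and did not pass with edgeR (adjusted p = 0.160), with DESeq2 at an adjusted p = 0.0340 and limma-voom at 0.0384. BAM15 minus CTRL gave 0.19 ± 0.36 in aged mice (adjusted p = 0.911) and -0.46 ± 0.33 in young mice (adjusted p = 0.576, both edgeR). The difference between both BAM15 effects on Ccl11 was 0.66 ± 0.49 (edgeR, adjusted p = 0.899).

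Eosinophil transcripts were near 0. Of 5 eosinophil markers, 2 were among the genes tested, Prg2 and Il5ra, at 0 in 4 and 6 of 24 libraries. Their summed level was 0.130 to 3.17 CPM in Aged BAM15, 0.292 to 1.87 CPM in Aged CTRL, 0.962 to 5.27 CPM in Young BAM15 and 0 to 2.25 CPM in Young CTRL. The receptor gene Ccr3 was not among the genes tested. The gene most like Ccl11 from library to library, after subtracting the mean of each group, was Islr (Pearson r = 0.90 over 24 libraries), a marker of stromal cells, followed by Rab28 and Zfp770 (both 0.85). Of 11 fibroblast and progenitor markers, edgeR called 0 in Aged BAM15 against Young BAM15. With edgeR 5 had an unadjusted p under 0.05, 4 higher and 1 lower, against 16.4% of all genes. DESeq2 and limma-voom each called 1 higher and 1 lower, and both tools called more of all genes there than edgeR. The summed level of the 11 was 2048 to 4103 CPM in Aged BAM15 and 1800 to 3693 CPM in Young BAM15.

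Ccl2, Ccl7 and Ccl8 encode monocyte chemoattractant proteins. Those of Ccl2 and Ccl7 act on CCR2, and that of mouse Ccl8 is known as a ligand of CCR8. Ccl2 lay at 42.7, 11.4, 6.07, 2.14 and 15.4 CPM in Aged BAM15, and from 5.81 to 137 CPM with a median of 40.5 CPM in Aged CTRL. Young BAM15 libraries held 2.63 to 6.66 CPM with a median of 3.69 CPM, and Young CTRL libraries 7.40 to 50.4 CPM with a median of 15.9 CPM. The 6 Young BAM15 libraries all lay under the 7 Young CTRL libraries, a separation seen in 1.19% of all genes, while the aged groups overlapped over most of their range.

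The log2 change of Ccl2 in Young BAM15 minus Young CTRL was -2.51 ± 0.65 (SE), with a 95% interval of -3.86 to -1.16 and an adjusted p = 0.179 with edgeR. DESeq2 gave an adjusted p = 0.00426 and limma-voom 0.0466 for the same comparison. In Aged BAM15 minus Aged CTRL it was -1.66 ± 0.67 (edgeR, adjusted p = 0.458), and the value was -0.88 without the 4 libraries low in mt-Rnr2, of which Aged CTRL 2 held the highest Ccl2 of all 24. In Aged CTRL minus Young CTRL it was 1.11 ± 0.59 (edgeR, adjusted p = 0.655), and 0.31 without those 4 libraries. The value in Aged BAM15 minus Young BAM15 was 1.97 ± 0.67 (edgeR, adjusted p = 0.180). The difference between the BAM15 effects on Ccl2 in aged and young mice was 0.85 ± 0.88 (edgeR, adjusted p = 0.903).

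Ccl7 lay at 48.6, 16.0, 21.4, 6.02 and 67.7 CPM in Aged BAM15, and from 13.6 to 57.7 CPM with a median of 41.0 CPM in Aged CTRL. Levels in Young BAM15 ran from 3.18 to 13.4 CPM with a median of 5.06 CPM, and those in Young CTRL from 5.78 to 41.3 CPM with a median of 30.3 CPM. The young groups overlapped through Young CTRL 1, 5 and 7, at 5.78, 11.8 and 12.8 CPM, of which Young CTRL 1 and 5 were also the 2 Young CTRL libraries high in B cell transcripts.

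Ccl7 had a log2 change of -1.97 ± 0.52 in Young BAM15 minus Young CTRL (edgeR, adjusted p = 0.187), with DESeq2 at an adjusted p = 0.0119 and limma-voom at 0.0425. In Aged BAM15 minus Aged CTRL it was -0.27 ± 0.54 (edgeR, adjusted p = 0.920), and the difference between the 2 effects was 1.70 ± 0.74 (edgeR, adjusted p = 0.899). Between the ages under BAM15 (Aged BAM15 minus Young BAM15) it was 2.35 ± 0.56, with an adjusted p = 0.0594 that lay just outside the threshold with edgeR. It passed there without the 2 libraries high in Krt14 (edgeR, adjusted p = 0.0412), which are Young CTRL and so outside this comparison, and when Aged BAM15 4 was left out. It did not pass without the libraries low in mt-Rnr2 or in a fit to these 2 groups alone. In Aged CTRL minus Young CTRL the log2 change of Ccl7 was 0.65 ± 0.49 (edgeR, adjusted p = 0.832). The gene most like Ccl7 was Rhbdl3 (r = 0.82), then the myeloid lectin Clec4a1 (0.77) and Rai2 (0.76), and those most like Ccl2 were Tmem208 (0.79), P4hb (0.78) and Fam241a (0.76), each over 24 libraries.

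Ccl8 lay at 41.2, 42.7, 18.8, 16.7 and 11.5 CPM in Aged BAM15, and from 18.3 to 71.6 CPM with a median of 33.0 CPM in Aged CTRL. Young BAM15 ran from 1.41 to 47.8 CPM with a median of 31.6 CPM, and Young CTRL from 10.7 to 37.6 CPM with a median of 21.5 CPM. All 4 groups overlapped, and Young BAM15 1, the Young BAM15 library with few B cell transcripts, was the lowest of all 24. The log2 changes were 0.81 ± 0.49 in Aged CTRL minus Young CTRL (adjusted p = 0.735), -0.54 ± 0.54 in Aged BAM15 minus Aged CTRL (adjusted p = 0.815) and 0.45 ± 0.49 in Young BAM15 minus Young CTRL (adjusted p = 0.740, all edgeR). Unlike Ccl2 and Ccl7, Ccl8 had a positive log2 change with BAM15 in young mice, which became -0.42 with B cell transcripts as a covariate. The genes most like it were Cd180 (0.79), Fgr (0.77) and Dpp4 (0.76).

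**Figure D2:**
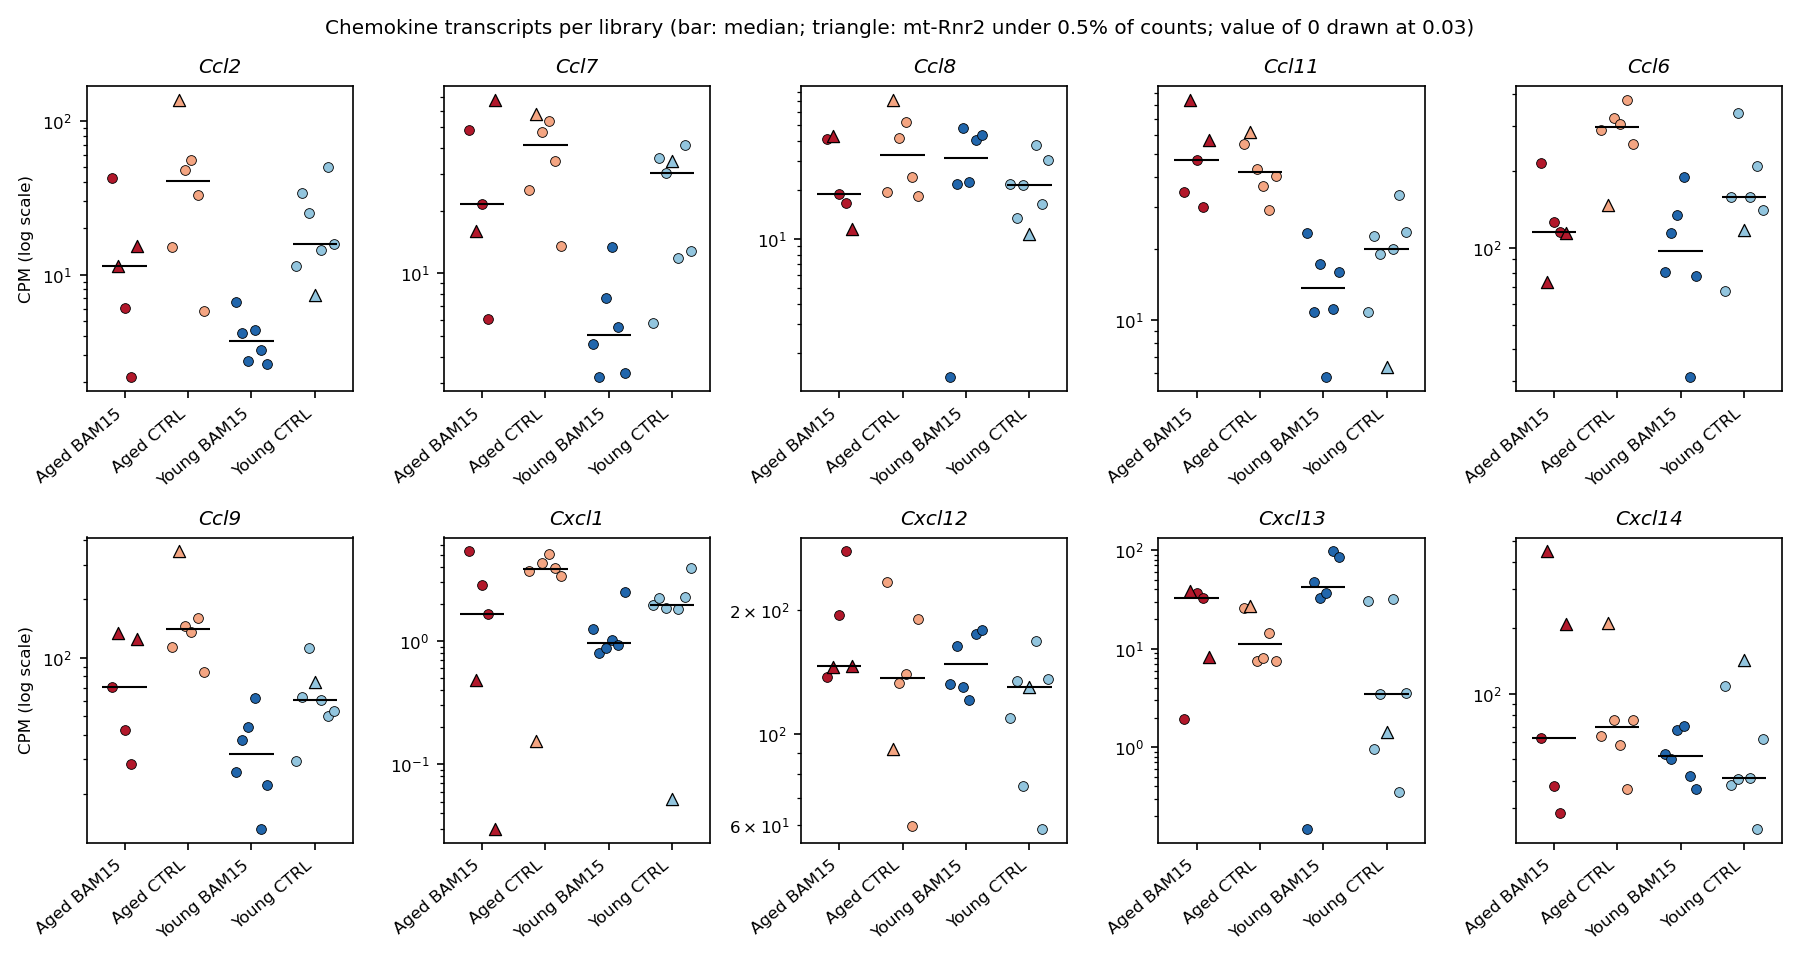
CPM of each chemokine (log axis) in every library, 1 point per mouse, grouped as Aged BAM15, Aged CTRL, Young BAM15 and Young CTRL; bars are group medians, triangles are the 4 libraries with mt-Rnr2 under 0.5% of counts, and a value of 0 is drawn at 0.03. Ccl2 in Young BAM15 stays at 2.63 to 6.66 CPM, under all Young CTRL libraries, and the triangles are lowest for Cxcl1 and highest for Cxcl14.

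B cell transcripts differed between the same libraries as Cxcl13. For Ccl2 and Ccl7 the libraries matched only in part. Aged CTRL 2, with a high B cell mean (3.59), had 137 CPM of Ccl2 and 57.7 CPM of Ccl7. Of 8 B cell markers, 8 were tested and 0 were called by edgeR, DESeq2 or limma-voom in Young BAM15 minus Young CTRL, where all 8 log2 changes were above 0 and 0 had an unadjusted p under 0.05. Their summed level was 1.33 to 338 CPM in Aged BAM15, 4.51 to 240 CPM in Aged CTRL, 2.59 to 1322 CPM in Young BAM15 and 2.19 to 367 CPM in Young CTRL. Cd79a was at 0 in 10 of 24 libraries, while Cd79b and Ms4a1 were at 0 in none. Of 6 markers of lymph node stroma, 3 were tested, Madcam1, Glycam1 and Chst4, at 0 in 10, 7 and 13 libraries, with a summed level of 0.148 to 112 CPM in Young BAM15 and 0 to 30.0 CPM in Young CTRL. With the mean of the 4 B cell genes as a covariate, the log2 change in Young BAM15 minus Young CTRL was -1.93 ± 0.70 for Ccl2 (adjusted p = 0.660) and -0.87 ± 0.56 for Ccl7 (adjusted p = 1.00, both edgeR). Young BAM15 1, the 1 Young BAM15 library with a low B cell mean (-1.32), had 6.66 CPM of Ccl2 and 4.59 CPM of Ccl7. The part of B cells or lymph node tissue in these differences was not tested.

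**Figure D3:**
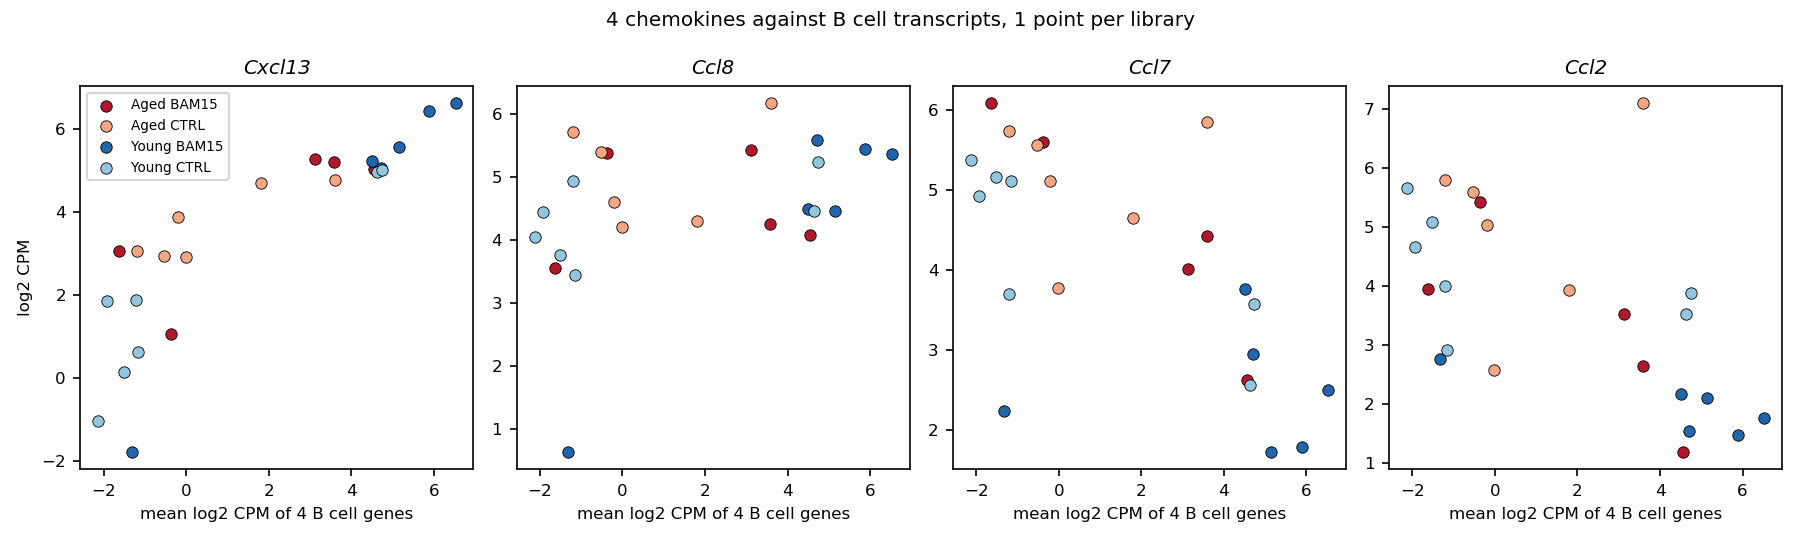
Log2 CPM of Cxcl13, Ccl8, Ccl7 and Ccl2 (y axis) against the mean log2 CPM of 4 B cell genes (x axis), 1 point per library, coloured by group. Cxcl13 climbs along the x axis in all 4 groups. Ccl7 is low at the far right and in Young BAM15 1, at a B cell mean of -1.32. Aged CTRL 2, at a B cell mean of 3.59, has a high Ccl7 (log2 CPM 5.85).

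Cxcl13 encodes the ligand of CXCR5 that guides B cells into follicles. It lay at 1.95, 38.3, 36.4, 32.7 and 8.24 CPM in Aged BAM15, and from 7.44 to 27.0 CPM with a median of 11.3 CPM in Aged CTRL. Young BAM15 libraries held 0.148 to 97.3 CPM with a median of 42.2 CPM, and Young CTRL libraries 0.347 to 32.1 CPM with a median of 3.46 CPM. The 2 Young CTRL libraries at 30.7 and 32.1 CPM were those high in B cell transcripts, and the lowest of all 24 was Young BAM15 1.

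The log2 change of Cxcl13 in Young BAM15 minus Young CTRL was 2.27 ± 0.97 (SE), with a 95% interval of 0.24 to 4.30 and an adjusted p = 0.336 with edgeR. With the B cell covariate it was 0.13 ± 0.64. For Aged BAM15 minus Aged CTRL it was 0.64 ± 1.03 (edgeR, adjusted p = 0.889), and -0.40 with the covariate. In Aged CTRL minus Young CTRL it was 0.54 ± 0.95 (edgeR, adjusted p = 0.959). The genes most like it after subtracting group means were Ipcef1 and Cd79b (both r = 0.92) and Cd37 (0.91), over 24 libraries, and Cd79b is also 1 of the 4 genes of the covariate. Its receptor gene Cxcr5 averaged 5.61 ± 5.47 CPM in Aged BAM15 (SD, n = 5), 2.94 ± 5.01 CPM in Aged CTRL (n = 6), 16.1 ± 13.4 CPM in Young BAM15 (n = 6) and 3.21 ± 5.35 CPM in Young CTRL (n = 7), with 0 calls. Cxcr5 lay at 0.148 CPM in Young BAM15 1 and at 9.77 to 40.2 CPM in the other 5 Young BAM15 libraries, and at 11.4 and 10.6 CPM in Young CTRL 1 and 5 and at most 0.201 CPM in the other 5 Young CTRL libraries. With the B cell covariate its log2 change in Young BAM15 minus Young CTRL was 0.24 ± 0.60 (edgeR, adjusted p = 1.00).

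Ccl6 and Ccl9 encode CC chemokines of the myeloid lineage that act on CCR1. Ccl6 lay at 215, 73.3, 126, 115 and 114 CPM in Aged BAM15, and from 147 to 381 CPM with a median of 298 CPM in Aged CTRL. Levels in Young BAM15 ran from 31.0 to 189 CPM with a median of 97.1 CPM, and those in Young CTRL from 67.5 to 339 CPM with a median of 159 CPM. In aged mice 4 of 5 BAM15 libraries lay under all 6 CTRL libraries, and Aged BAM15 1 at 215 CPM lay above Aged CTRL 2 at 147 CPM, a library low in mt-Rnr2. Without the libraries low in mt-Rnr2, the 3 Aged BAM15 libraries lay under the 5 Aged CTRL libraries. These 2 sets did not overlap for 7.62% of all genes. In young mice the ranges overlapped.

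Ccl6 had a log2 change of -1.14 ± 0.39 (SE) in Aged BAM15 minus Aged CTRL, with a 95% interval of -1.96 to -0.33 and an adjusted p = 0.373 with edgeR. Limma-voom, which weights libraries by quality, gave an adjusted p = 0.0293. In Young BAM15 minus Young CTRL it was -0.71 ± 0.36 (edgeR, adjusted p = 0.398), in Aged CTRL minus Young CTRL 0.74 ± 0.35 (adjusted p = 0.577) and in Aged BAM15 minus Young BAM15 0.30 ± 0.38 (adjusted p = 0.687). None of these Ccl6 values passed with edgeR.

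Ccl9 lay at 71.0, 134, 42.4, 28.5 and 125 CPM in Aged BAM15, and from 84.6 to 351 CPM with a median of 141 CPM in Aged CTRL. Young BAM15 ran from 13.2 to 62.2 CPM with a median of 31.8 CPM, and Young CTRL from 29.6 to 112 CPM with a median of 60.4 CPM. The 2 highest Aged BAM15 libraries and the highest Aged CTRL library were all low in mt-Rnr2. Outside those, the 3 Aged BAM15 libraries lay at 28.5 to 71.0 CPM and the 5 Aged CTRL libraries at 84.6 to 159 CPM. Groups of 3 and 5 libraries did not overlap for 7.62% of all genes there.

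The log2 change of Ccl9 in Aged BAM15 minus Aged CTRL was -1.04 ± 0.43 (edgeR, adjusted p = 0.467), with limma-voom at an adjusted p = 0.00731, and -1.43 ± 0.45 without the 4 libraries low in mt-Rnr2 (edgeR, adjusted p = 0.287). In Young BAM15 minus Young CTRL it was -0.89 ± 0.40 (edgeR, adjusted p = 0.346). In Aged CTRL minus Young CTRL it was 1.38 ± 0.39 with edgeR (adjusted p = 0.169), and DESeq2 gave an adjusted p = 0.0301. The value in Aged BAM15 minus Young BAM15 was 1.23 ± 0.42 (edgeR, adjusted p = 0.184), and 0.49 without the 4 libraries. Ccl9 thus had a positive log2 change with age and a negative one with BAM15 in both ages, and its difference between the BAM15 effects was -0.15 ± 0.58 (edgeR, adjusted p = 0.971).

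Macrophage transcripts were read beside these 2 genes. Of 14 macrophage markers, edgeR called 0 in Aged CTRL minus Young CTRL, DESeq2 0 and limma-voom 1. There 5 had an unadjusted p under 0.05 (8.43% of all genes) and 14 of 14 log2 changes were above 0 (46.5% of all genes). Without the libraries low in mt-Rnr2 these counts were 8 and 13 of 14. In Aged BAM15 minus Aged CTRL edgeR and DESeq2 called 0 of the 14 and limma-voom called 4, all lower. There 3 had an unadjusted p under 0.05 (9.10% of all genes) and 2 of 14 log2 changes were above 0 (51.7% of all genes). Their summed level was 813 to 1919 CPM in Aged BAM15, 1087 to 2412 CPM in Aged CTRL, 630 to 1444 CPM in Young BAM15 and 707 to 1916 CPM in Young CTRL. Of 8 markers of lipid-associated macrophages, Gpnmb rose in Aged CTRL against Young CTRL (165 ± 59.3 against 48.8 ± 22.5 CPM, SD, n = 6 and 7, edgeR, adjusted p = 0.0206) and the other 7 were not called. The Gpnmb call was lost without the libraries low in mt-Rnr2 (log2 change 1.53 ± 0.36, edgeR, adjusted p = 0.0612). With the B cell covariate it was kept (1.80 ± 0.35, edgeR, adjusted p = 0.0181). With BAM15 in aged mice edgeR called 0 of the 8 lipid-associated markers, DESeq2 3 and limma-voom 5. Of these 8, 4 had an unadjusted p under 0.05 (9.10% of all genes did) and 0 had a log2 change above 0. In young mice edgeR and DESeq2 called 0 of the 8 and limma-voom 2. There too 4 had an unadjusted p under 0.05 (13.1% of all genes) and 0 of 8 lay above 0. The 4 became 1 with the B cell covariate and 6 without the libraries low in mt-Rnr2, all lower. Of the 14 macrophage markers, 0 were called in young mice by any of the tools, with 4 of 14 above 0. The genes most like Ccl9 were the Fc receptor gene Fcgr3 (r = 0.91), Retnla (0.90) and the myeloid lectin Clec4a3 (0.88), and those most like Ccl6 were Kifap3 (0.82), Cd300lb and Tln2 (both 0.81), over 24 libraries. The part of macrophage content in the Ccl6 and Ccl9 values was not tested.

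From library to library, after subtracting group means, the Pearson r of Ccl6 with Ccl9 was 0.36 over 24 libraries, below that of several other pairs, and 0.94 over the 20 that were not low in mt-Rnr2. These libraries also share depth and tissue content. As neighbours on chromosome 11 with that r over the 20 libraries, both genes are shown with the 250 bases before their start sites, from RefSeq on GRCm38.p6, minus strand, 5′ to 3′, with motif matches in capitals. RefSeq promoter entries were found for 7 of the 10 genes, and those of Ccl2, Ccl7 and Ccl11 were not used here.
Ccl6, chr11:83593088-83593337: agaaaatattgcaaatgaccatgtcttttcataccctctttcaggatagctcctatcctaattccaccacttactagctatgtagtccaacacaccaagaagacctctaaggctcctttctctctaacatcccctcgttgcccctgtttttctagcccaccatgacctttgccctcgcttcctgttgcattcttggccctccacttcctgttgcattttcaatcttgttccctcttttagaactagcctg
Ccl9, chr11:83578637-83578886: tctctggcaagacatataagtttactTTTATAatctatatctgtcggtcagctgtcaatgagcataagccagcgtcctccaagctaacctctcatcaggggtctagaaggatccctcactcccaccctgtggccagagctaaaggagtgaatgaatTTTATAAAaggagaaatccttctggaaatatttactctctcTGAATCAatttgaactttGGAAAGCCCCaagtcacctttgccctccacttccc
Motifs were searched on both strands as TATAAA (the TATA box), GAGGAA (the core bound by PU.1), GGG and TTTCC with 2 bases between them (NF-kB), TGANTCA (AP-1) and TTC and GAA with 4 bases between them (STAT), which 12.4%, 23.3%, 1.41%, 6.75% and 5.85% of 32851 promoter windows of that length held, in this order. The Ccl9 window held TATAAA at -224, -94 and -92, the last 2 overlapping, the AP-1 letters at -53 and the NF-kB letters at -35, counted from the start site. The Ccl6 window held none of the 5. Of the other 5 windows, that of Cxcl1 held the NF-kB letters at -89 and -71, that of Ccl8 held TATAAA at -32 and GAGGAA at -240, that of Cxcl13 held TATAAA at -46, and those of Cxcl12 and Cxcl14 held none.

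**Figure D4:**
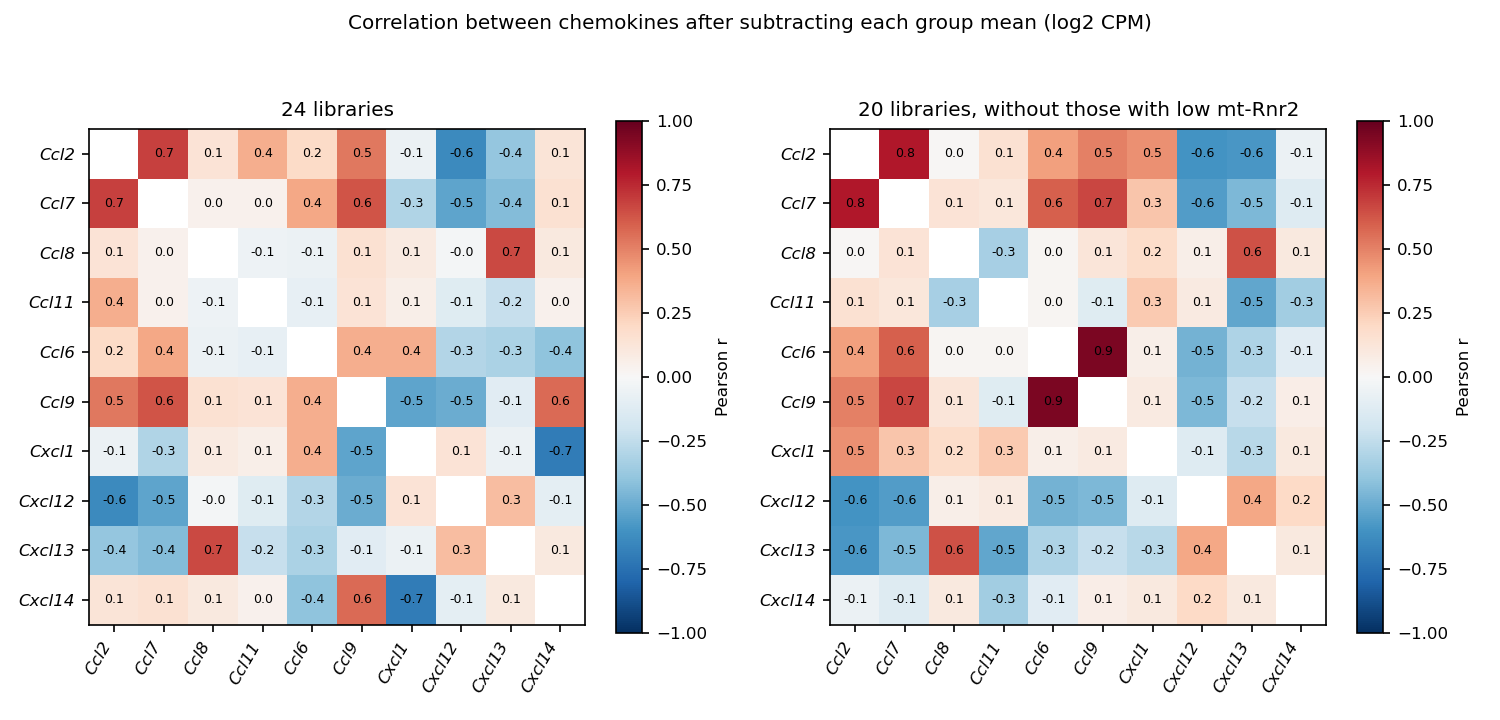
Pearson r between the 10 chemokines from library to library after subtracting each group mean of log2 CPM, over 24 libraries (left) and over the 20 without the libraries low in mt-Rnr2 (right). Ccl6 with Ccl9 goes to 0.94 in the right panel against 0.36 in the left, Ccl2 with Ccl7 is 0.80 and 0.68, and Cxcl1 with Cxcl14 is 0.10 and -0.70.

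The other pairs fell into few patterns. Ccl2 and Ccl7, neighbours on chromosome 11, had an r of 0.68 over 24 libraries and 0.80 over 20. Ccl7 and Ccl9 had 0.63 and 0.67, and Ccl8 and Cxcl13 had 0.66 and 0.64, in both sets of libraries. Ccl2 and Cxcl12 ran opposite to each other, at -0.64 and -0.60. Ccl11, which lies between Ccl7 and Ccl8 on the chromosome, had an r of 0.04 with Ccl7 and -0.05 with Ccl8 over 24 libraries.

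Cxcl1 encodes a ligand of CXCR2 that attracts neutrophils, and Cxcl14 a CXC chemokine for which no single receptor is agreed on. Cxcl1 lay at 5.32, 0.482, 2.86, 1.65 and 0 CPM in Aged BAM15, and from 0.156 to 5.04 CPM with a median of 3.82 CPM in Aged CTRL. Young BAM15 libraries held 0.796 to 2.48 CPM with a median of 0.966 CPM, and Young CTRL libraries 0.0521 to 3.91 CPM with a median of 1.95 CPM. The 4 libraries low in mt-Rnr2 held the 4 lowest values, 0 to 0.482 CPM, against 0.796 CPM or more in the other 20.

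Cxcl1 had log2 changes of 0.76 ± 0.77 in Aged CTRL minus Young CTRL (adjusted p = 0.910), -0.72 ± 0.84 in Aged BAM15 minus Aged CTRL (adjusted p = 0.847) and -0.70 ± 0.79 in Young BAM15 minus Young CTRL (adjusted p = 0.747, all edgeR). Without the 4 libraries these were 0.80 ± 0.37 (adjusted p = 0.429), -0.30 ± 0.45 (0.857) and -0.93 ± 0.37 (0.182), and Aged BAM15 minus Young BAM15 was 1.44 ± 0.43 (0.354) against 0.75 ± 0.84 with them (0.647). No call was made with or without them. The genes most like Cxcl1 were Abhd17a, Tmem214 and Gcn1, all at r = 0.94 over 24 libraries, and at 0.45, 0.41 and 0.31 over the 20 that were not low in mt-Rnr2. Cxcr2 averaged 1.54 ± 1.47 CPM in Aged BAM15 (SD, n = 5), 0.788 ± 0.810 CPM in Aged CTRL (n = 6), 2.76 ± 3.07 CPM in Young BAM15 (n = 6) and 1.16 ± 2.39 CPM in Young CTRL (n = 7), with 0 in 7 libraries.

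Cxcl14 lay at 62.7, 446, 37.9, 28.5 and 208 CPM in Aged BAM15, and from 36.6 to 209 CPM with a median of 70.0 CPM in Aged CTRL. Levels in Young BAM15 ran from 36.7 to 70.8 CPM with a median of 51.8 CPM, and those in Young CTRL from 24.1 to 143 CPM with a median of 41.1 CPM. The 4 libraries low in mt-Rnr2 held the 4 highest values, 143 to 446 CPM, and the next was Young CTRL 1 at 108 CPM.

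The log2 change of Cxcl14 in Aged BAM15 minus Aged CTRL was 0.85 ± 0.57 with all libraries (edgeR, adjusted p = 0.691) and -0.53 ± 0.38 without those 4 (adjusted p = 0.628). Between the ages under BAM15 (Aged BAM15 minus Young BAM15) it was 1.55 ± 0.58 (edgeR, adjusted p = 0.212) and -0.30 ± 0.36 without them (adjusted p = 0.967). In Aged CTRL minus Young CTRL it was 0.41 ± 0.53 (edgeR, adjusted p = 0.938), and in Young BAM15 minus Young CTRL -0.29 ± 0.53 (adjusted p = 0.866). With single libraries left out, the log2 change of Cxcl14 with BAM15 in aged mice was -0.04 without Aged BAM15 2, 0.73 without Aged BAM15 5 and 1.33 without Aged CTRL 2. The part of low mt-Rnr2 in it was not tested. Among the genes most like it were Kctd15 and Gsta4, both at r = 0.90 over 24 libraries, and at 0.74 and 0.58 over the 20.

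**Figure D5:**
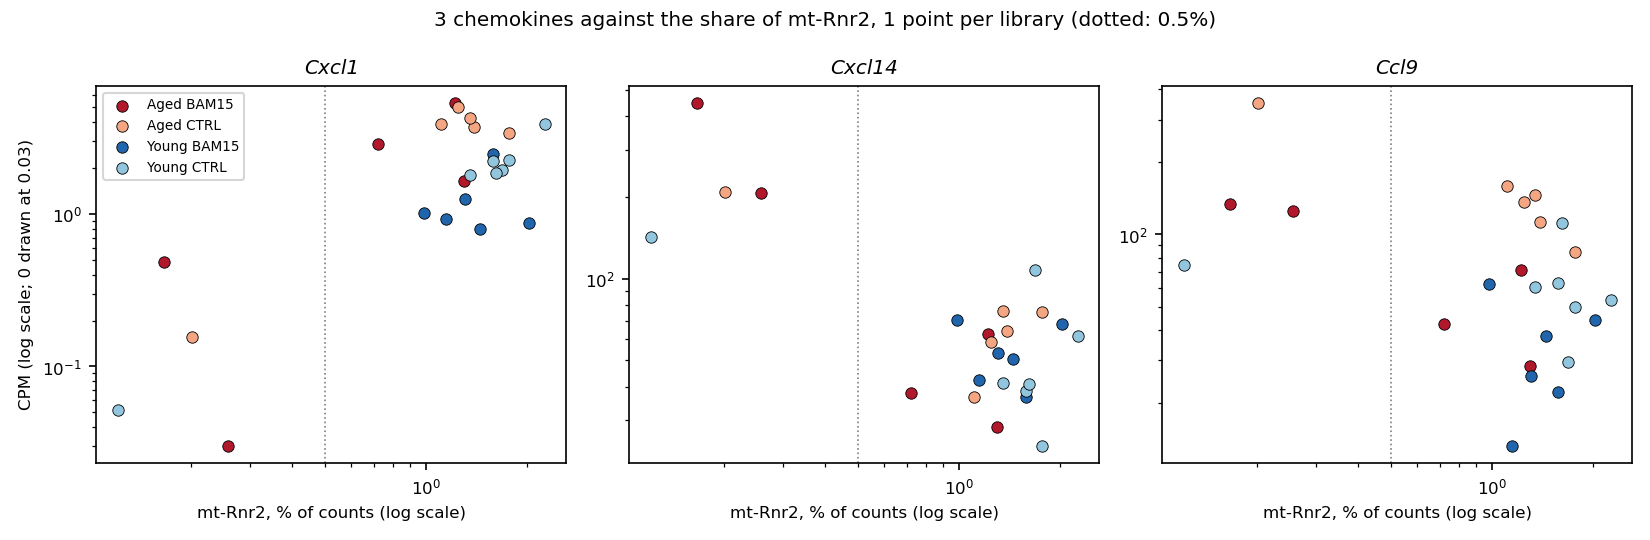
CPM of Cxcl1, Cxcl14 and Ccl9 (y axis, log scale) against the percentage of counts from mt-Rnr2 (x axis, log scale), 1 point per library, coloured by group; the dotted line marks 0.5% and a value of 0 is drawn at 0.03. The 4 libraries left of the line have the lowest Cxcl1, at 0 to 0.482 CPM, and the highest Cxcl14, at 143 to 446 CPM.

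Cxcl12 encodes the ligand of CXCR4 and of the atypical receptor ACKR3, and is known for holding progenitor cells in place. It lay at 137, 145, 194, 277 and 146 CPM in Aged BAM15, and from 59.7 to 233 CPM with a median of 137 CPM in Aged CTRL. Young BAM15 ran from 121 to 179 CPM with a median of 147 CPM, and Young CTRL from 58.8 to 168 CPM with a median of 130 CPM. All 4 groups overlapped, and the BAM15 groups lacked the values under 100 CPM found in 2 Aged CTRL and 2 Young CTRL libraries.

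Cxcl12 had a log2 change of 0.34 ± 0.30 in Aged BAM15 minus Aged CTRL, with a 95% interval of -0.28 to 0.97, and 0.37 ± 0.27 in Young BAM15 minus Young CTRL, with an interval of -0.20 to 0.95 (edgeR, adjusted p = 0.776 and 0.579). With age it was 0.29 ± 0.27 in CTRL mice and 0.26 ± 0.30 in BAM15 mice (edgeR, adjusted p = 0.895 and 0.652). Its standard errors were the smallest of the 10 genes in each of these 4 comparisons. The genes most like it were Hid1 (r = 0.86), Rbm4b and Rbm5 (both 0.84), over 24 libraries.

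The chemokine receptor genes gave 0 calls with edgeR and DESeq2 in all 5 comparisons, and 1 with limma-voom, in Aged BAM15 minus Aged CTRL. Of 18 chemokine receptor genes 14 were tested, and of 5 atypical receptor genes 5 were tested. In Aged CTRL minus Young CTRL the median log2 change of the 14 was -0.40, with 3 of 14 above 0 and 0 at an unadjusted p under 0.05. In Young BAM15 minus Young CTRL it was 1.74 with 11 of 14 above 0 and 3 at an unadjusted p under 0.05 (13.1% of all genes had one there). Receptors of lymphocytes are part of that list. With the B cell covariate the median of the 14 in that comparison was 0.13, with 8 of 14 above 0 and 0 at an unadjusted p under 0.05.

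Ccr2, the receptor for the ligands of Ccl2 and Ccl7, averaged 27.4 ± 6.94 CPM in Aged BAM15 (SD, n = 5), 31.1 ± 12.3 CPM in Aged CTRL (n = 6), 43.5 ± 8.77 CPM in Young BAM15 (n = 6) and 44.5 ± 20.3 CPM in Young CTRL (n = 7). Its log2 change was -0.03 ± 0.28 in Young BAM15 minus Young CTRL, the comparison in which Ccl2 and Ccl7 had -2.51 and -1.97 (edgeR, adjusted p = 0.979 for Ccr2). Ccr1, a receptor for Ccl6 and Ccl9, averaged 1.83 ± 0.879 CPM in Aged BAM15 (SD, n = 5), 2.50 ± 1.04 CPM in Aged CTRL (n = 6), 1.61 ± 1.06 CPM in Young BAM15 (n = 6) and 2.16 ± 0.371 CPM in Young CTRL (n = 7).

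Cxcr4 and Ackr3, the receptor genes for Cxcl12, had log2 changes of -1.37 ± 0.50 (adjusted p = 0.198) and -0.75 ± 0.40 (adjusted p = 0.336) in Aged BAM15 minus Young BAM15, with 0.26 for Cxcl12 itself (edgeR). Cxcr4 averaged 7.71 ± 7.16 CPM in Aged BAM15 (SD, n = 5), 8.62 ± 1.71 CPM in Aged CTRL (n = 6), 19.9 ± 5.95 CPM in Young BAM15 (n = 6) and 12.3 ± 4.84 CPM in Young CTRL (n = 7). In Aged BAM15 2 and 5, both low in mt-Rnr2, Cxcr4 lay at 1.10 and 1.56 CPM, against 5.25 to 16.2 CPM in the other 3 Aged BAM15 libraries, and Ackr3 at 11.9 and 9.28 CPM, against 20.4 to 34.6 CPM. Without the 4 libraries low in mt-Rnr2 the log2 changes in Aged BAM15 minus Young BAM15 were -0.71 ± 0.34 for Cxcr4 and -0.33 ± 0.37 for Ackr3 (edgeR, adjusted p = 0.767 and 0.967). Ackr1, which binds many inflammatory chemokines on venules, and Ackr2, which clears CC chemokines, had log2 changes between -0.82 and 0.63 in the 4 comparisons of 2 groups, all uncalled.

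Inducing cytokines and NF-kB regulators were taken as 1 list, of which 11 of 16 genes were tested. Tnf and Il1b were the cytokines among the 11, and the rest were NF-kB regulators. EdgeR and DESeq2 called 0 of the 11 in any of the 5 comparisons, and limma-voom called 1, in Young BAM15 minus Young CTRL. Tnf averaged 1.04 ± 0.922 CPM in Aged BAM15 (SD, n = 5), 1.25 ± 1.15 CPM in Aged CTRL (n = 6), 3.79 ± 2.58 CPM in Young BAM15 (n = 6) and 1.04 ± 1.25 CPM in Young CTRL (n = 7). Its log2 change was 1.85 ± 0.86 in Young BAM15 minus Young CTRL (edgeR, adjusted p = 0.361), where that of Ccl2 was -2.51. In that comparison 11 of the 11 cytokine and NF-kB regulator genes had a positive log2 change, against 52.7% of all genes, with a median of 1.00. Of the 11, 7 had an unadjusted p under 0.05, against 13.1% of all genes. B cell transcripts differed between the same libraries. Tnf lay at 0.296 CPM in Young BAM15 1 and at 2.83 to 7.47 CPM in the other 5 Young BAM15 libraries, and at 3.15 and 2.47 CPM in Young CTRL 1 and 5 and at most 0.843 CPM in the other 5 Young CTRL libraries. With the B cell covariate 8 of the 11 had a positive log2 change, with a median of 0.14 and 0 at an unadjusted p under 0.05, and Tnf had 0.13 ± 0.75 (edgeR, adjusted p = 1.00). Il1b, by contrast, averaged 1.31 ± 1.42, 1.19 ± 1.03, 1.25 ± 0.821 and 1.20 ± 1.26 CPM in Aged BAM15, Aged CTRL, Young BAM15 and Young CTRL (SD), with log2 changes of 0.14 ± 0.85 in Aged BAM15 minus Aged CTRL and 0.05 ± 0.79 in Young BAM15 minus Young CTRL. Il6 was not among the genes tested.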

How the data were processed

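The authors deposited raw counts, whole numbers per Ensembl gene for 24 libraries, and a signal table that equals these counts after division by a size factor for each library (largest deviation 6.52e-09 counts). The submitters' processing notes name R 3.4.3, DESeq2 1.18.1 and GRCm38, while the sources used here do not give the aligner, the counter or the strand setting. Every result comes from the raw counts. Symbols came from the deposited table for 14606 genes and from the reference annotation for 2888, and 47 had none.

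Libraries were scaled with trimmed mean of M values factors. The filter filterByExpr removed 1602 genes and kept 15939. EdgeR 4.0.16 (R 4.3.3) fitted 1 mean per group to the 24 libraries together (quasi-likelihood F-test, robust), leaving 20 residual degrees of freedom, with a common biological coefficient of variation of 0.621. P values were adjusted with Benjamini-Hochberg over all genes tested. The SE is the absolute log2 change over the square root of F, and intervals are 95% intervals from a t distribution with 20 degrees of freedom. A prior count of 2 went into log2 CPM. The fit was tested on simulated data with known changes. CPM and intervals cover the spread between mice, and each library is taken as a separate mouse from the labels.

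The 10 genes and the marker lists were chosen with earlier results of these data known. The rule for naming genes takes the 10 chemokines, any called receptor or inducer or, with none called, the known receptors and Tnf, Il1b and Il6, and for each chemokine the 3 genes of at least 5 CPM (10405 compared) with the highest Pearson r. Values of 3 genes under this rule or in the lists are not reported here. Gpnmb and the markers named with values were named after their values were seen. The comparison of Aged BAM15 with Young BAM15 was also added after the data were seen, as were the receptor, inducer and Gpnmb values with the B cell covariate or without the libraries low in mt-Rnr2. Alternatives were DESeq2 size factors, no filter, the Wald test of DESeq2 1.42.0, limma-voom (limma 3.58.1) with quality weights, a fit of only the compared groups, a block for the replicate number, a B cell covariate, leaving out libraries with mt-Rnr2 under 0.5% of counts or Krt14 over 50 CPM, and leaving out each library in turn. No 2 libraries of a group were copies of each other: the chi-square per gene was 21.1 to 697 over 61 pairs.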

Additional observations from a re-analysis of the deposited data

Results flagged for a closer look

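In 4 of 40 sets of values (each chemokine in each group) the highest or lowest mouse lay far from the rest of its group, by the gap to its neighbour over the range, where chance gives about 2. Aged CTRL 2 was that mouse in 3 of the 4. Its Ccl9 was 351 CPM, with the next Aged CTRL library at 159 CPM. Its Cxcl14 was 209 CPM, with the next at 76.1 CPM. Its Cxcl1 was 0.156 CPM, with the next lowest at 3.37 CPM. This library is 1 of the 4 with mt-Rnr2 under 0.5% of counts, and the part of that in its values was not tested. In Young BAM15, Cxcl1 was 2.48 CPM in Young BAM15 6, with the next at 1.26 CPM.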

How the results depend on the processing

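Leaving out 1 library at a time gave 720 repeats of the chemokine values, of which 684 kept direction and side of the threshold, 30 changed sign, 5 lost the call of Ccl11 and 1 gained a call. Of 440 repeats under other settings, 407 kept both, 20 changed sign, 11 gained and 2 lost a call. The cause of these shifts was not tested.

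Genes called numbered 20 to 35 in Aged CTRL minus Young CTRL, 0 to 67 in Aged BAM15 minus Aged CTRL, 0 to 1 in Young BAM15 minus Young CTRL, 0 to 0 for the interaction and 14 to 121 in Aged BAM15 minus Young BAM15 when 1 library was left out, with 0 to 2 chemokines called in the last. Values that changed sign so ran from -0.07 to 0.33 for Ccl11 and -0.04 to 1.33 for Cxcl14 in Aged BAM15 minus Aged CTRL, -0.07 to 0.73 for Cxcl14 in Aged CTRL minus Young CTRL, -0.43 to 0.03 for Cxcl14 in Young BAM15 minus Young CTRL, -0.40 to 0.01 for Ccl8 in Aged BAM15 minus Young BAM15, and, for the interaction, -0.40 to 0.22 for Ccl9, -0.74 to 0.31 for Cxcl1 and -0.24 to 0.17 for Cxcl12.

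For Aged CTRL minus Young CTRL, genes called were 271 with DESeq2, 145 with limma-voom, 79 without the low mt-Rnr2 libraries, 4 without the Krt14 libraries and 18 in the compared groups alone. They were 140 and 966 (DESeq2 and limma-voom) for Aged BAM15 minus Aged CTRL, 218 and 631 for Young BAM15 minus Young CTRL and 38 with DESeq2 for the interaction. For Aged BAM15 minus Young BAM15 they were 403 and 302, with 27 without the low mt-Rnr2 libraries, 31 with the B cell covariate and 17 in the compared groups alone. Chemokines called were 2 with DESeq2 and 1 with limma-voom in Aged CTRL minus Young CTRL, 2 with limma-voom in Aged BAM15 minus Aged CTRL, 2 with each in Young BAM15 minus Young CTRL, and in Aged BAM15 minus Young BAM15 2 with DESeq2, 2 without the Krt14 libraries, 0 without the low mt-Rnr2 libraries and 0 in the compared groups alone.

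Other sign changes came without the low mt-Rnr2 libraries (Ccl11 -0.12 and Cxcl14 -0.53 in Aged BAM15 minus Aged CTRL, Cxcl14 0.02 in Young BAM15 minus Young CTRL and -0.30 in Aged BAM15 minus Young BAM15, and Cxcl1 0.63, Cxcl12 0.03 and Cxcl14 -0.55 for the interaction), without the Krt14 libraries (Ccl9 0.03, interaction), with the B cell covariate (Cxcl13 -0.40 in Aged BAM15 minus Aged CTRL, Ccl8 -0.42 in Young BAM15 minus Young CTRL, Ccl8 0.48 and Cxcl13 0.93 in Aged BAM15 minus Young BAM15, Cxcl12 0.13 for the interaction) and with limma-voom (Ccl11 -0.02 and Cxcl14 -0.62 in Aged BAM15 minus Aged CTRL, Cxcl14 0.24 in Young BAM15 minus Young CTRL and -0.33 in Aged BAM15 minus Young BAM15, and Cxcl1 0.12, Cxcl12 0.14 and Cxcl14 -0.86 for the interaction).

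Nothing in the labels says that replicate numbers pair the mice. Same-numbered libraries of different groups had a median r of -0.05 over 33 pairs, against 0.01 over 182 other pairs. Of 24 libraries, 4 matched best with their own number. With the replicate block, 5 genes were called in Aged CTRL minus Young CTRL and 13 in Aged BAM15 minus Young BAM15. Cxcl1, at 0 to 5.32 CPM, is limited by counts.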
